A study of Mus musculus with 4 samples.

Results

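The genes described here are 8 leukocyte integrin chains (Itgal, Itgam, Itgax, Itgb2, Itga4, Itgb1, Itgae and Itgb7) and Selplg, which encodes P-selectin glycoprotein ligand 1 (PSGL-1), in splenic plasmacytoid dendritic cells (pDCs) of Flt3 KO and WT mice. They were taken by gene symbol, from a list drawn up with earlier results of these data known, among the genes read by a probe set annotated to a single symbol; the choice by symbol reads no intensity, and all 9 were found among 19938 such genes. The study compared mature pDCs sorted from Flt3 KO spleens with those from WT spleens, with 2 biological replicates for each genotype and a whole-transcript array for each replicate. Both groups came from mice at steady state, and their spleens were digested with collagenase B and DNase 1. The labels name the alleles no further than Flt3 KO and WT and give no strain, age, sex or sort gate, nor whether a replicate was a single animal or a pool. The p-values below therefore rest on the spread between these samples, which limma moderates for each gene with the variance of other genes.

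Integrins are heterodimers of an α and a β chain that bind matrix proteins or ligands on other cells, and they bind firmly only after signals from inside the cell, carried by talin and kindlin, open the extracellular part. In leukocyte traffic, selectins and PSGL-1 mediate rolling on the vessel wall, and integrins then mediate arrest and passage. The β2 chain pairs with αL (LFA-1), αM (Mac-1) and αX (CD11c/CD18), the α4 chain with β1 (VLA-4) or β7, and αE (CD103) with β7. Mouse pDCs are known to carry CD11c at an intermediate level and little CD11b, the product of Itgam, so both proteins are commonly used to gate them. The product of Flt3 is the receptor for FLT3 ligand, a cytokine needed for dendritic cell development.

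The deposited table held a processed intensity for 30177 probe sets on each of the 4 arrays. Both Flt3 KO arrays had a higher median (57.2 and 56.2) than the WT arrays (55.1 and 55.3), and the main fit applied no further scaling. All levels below are log2 of that intensity, and a difference is Flt3 KO minus WT with its standard error (SE) from limma. The targeted gene, Flt3, read 8.46 and 8.61 in Flt3 KO pDCs, against 10.71 and 10.77 in WT pDCs (difference −2.21, SE 0.066, limma adjusted p = 7.4e-05). The pDC marker genes Siglech, a lectin gene, and Bst2, both named after their values were seen, were bright in both genotypes. Means were 12.52 in Flt3 KO and 12.65 in WT for Siglech (difference −0.13), and 12.85 and 12.92 for Bst2 (−0.074). Of the 11 measured pDC markers 6 fell and 0 rose, as given below. In all, 476 of 19938 genes passed the threshold of a Benjamini-Hochberg adjusted p under 0.05, or 2.39%. That count was 54 when Flt3 KO replicate 1 was left out, 2 when Flt3 KO replicate 2 was, and 0 when either WT array was (2068 and 2650 at an unadjusted p under 0.05 in limma), so no call outlived the loss of either WT array.

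None of the 9 genes passed the threshold in limma, where 2.39% of all genes did. At an unadjusted p under 0.05 there were 4 of the 9, namely Itgax, Itgam and Itgb1 on the higher side and Itga4 on the lower side, against 17.1% of all genes (6.95% higher and 10.1% lower). Array values did not overlap between genotypes for 8 of the 9, 4 higher (Itgam, Itgax, Itgae and Itgb1) and 4 lower (Itga4, Itgal, Itgb2 and Selplg) in Flt3 KO, against 47.2% of all genes (21.9% higher and 25.3% lower). Itgb2 belongs to the 8 by a margin too small to show at this precision, as given below. The differences were small: the median was −0.031, against −0.0010 over all genes tested, and the largest was 0.41 for Itgam. A p above the threshold does not show that levels were equal, so the interval of each difference is given. For the 7 genes whose mean lay above 5.89, the median of all genes, in both genotypes, the 95% intervals, each for a single gene and not adjusted, lay between 0.854-fold and 1.27-fold. All intervals given here take the scaling of the arrays as deposited and carry no uncertainty in it. In RNA from sorted cells in bulk, a change in the share of cells that make a transcript and a change in transcript per cell cannot be told apart.

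**Figure D1:**
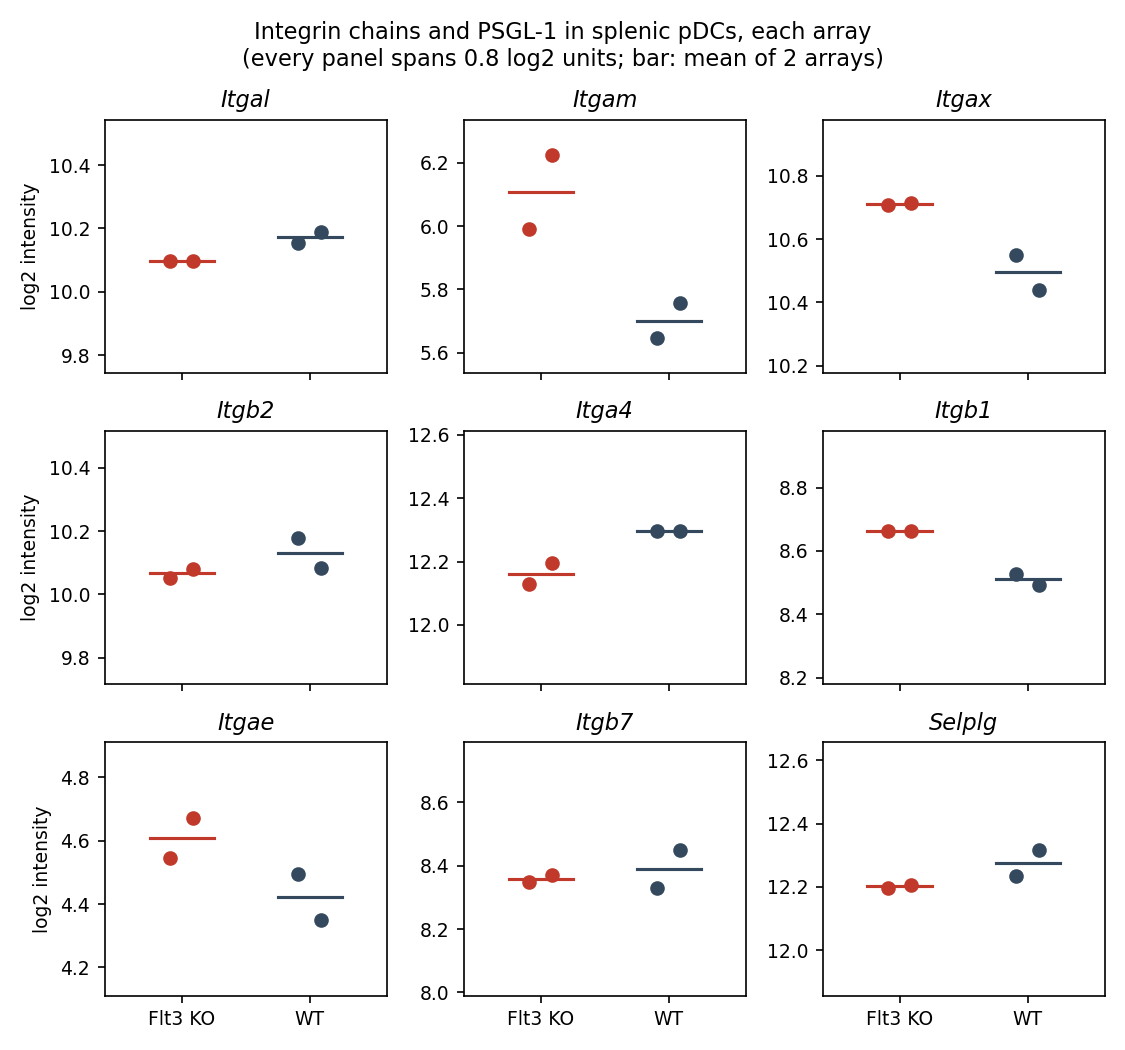
Log2 intensity (vertical axis) of each of the 9 genes in the 2 Flt3 KO arrays (left, red) and the 2 WT arrays (right, blue), with a bar at the mean of each genotype; every panel spans 0.8 log2 units. The genotypes are separate for Itgam, Itgax, Itgb1, Itgae, Itga4, Itgal and Selplg, touch for Itgb2 and overlap for Itgb7.

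The common β2 chain and the α chain of LFA-1 differed little. Itgb2 (Entrez gene 16414), which encodes CD18, read 10.05 and 10.08 in Flt3 KO pDCs, against 10.18 and 10.08 in WT pDCs. Its difference was −0.063 (SE 0.055, 95% interval −0.19 to 0.065, limma adjusted p = 0.62). Flt3 KO replicate 2 and WT replicate 2 were level to 2 decimals, and without WT replicate 1 the difference was −0.015. Itgal (Entrez gene 16408), whose product αL binds the ICAM ligands, read 10.10 and 10.10 in Flt3 KO pDCs, against 10.16 and 10.19 in WT pDCs. Both Flt3 KO arrays lay below both WT arrays, by a mean of −0.075 (SE 0.048, 95% interval −0.19 to 0.039, limma adjusted p = 0.49). The lower bounds of the 2 intervals stand at 0.875-fold for Itgb2 and 0.877-fold for Itgal.

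The other β2 partners, αX and αM, had the largest differences of the 9 genes, both on the higher side. Itgax (Entrez gene 16411), which encodes CD11c, read 10.71 and 10.71 in Flt3 KO pDCs, against 10.55 and 10.44 in WT pDCs. The Flt3 KO arrays were close to each other and above both WT arrays, with a difference of 0.22 (SE 0.053, 95% interval 0.091 to 0.34, 1.16-fold). Its limma adjusted p of 0.10 was the lowest of the 9 and did not pass. Itgam (Entrez gene 16409), which encodes CD11b, read 5.99 and 6.23 in Flt3 KO pDCs, against 5.65 and 5.76 in WT pDCs. Again both Flt3 KO arrays were above both WT arrays, and the difference was 0.41 (SE 0.11, 95% interval 0.15 to 0.66, limma adjusted p = 0.12). No fold is given for Itgam: its WT mean, 5.70, was under the all-gene median of 5.89, and no detection call or background level was available to set its signal against. The gap between the Flt3 KO replicates of Itgam was 0.23, and leaving out Flt3 KO replicate 2 gave a difference of 0.29, leaving out Flt3 KO replicate 1 a difference of 0.52. A further 3 probe sets were annotated to both Itgam and the ribosomal protein gene Rpl35, and were not used for Itgam. They read 11.47 to 12.04 on the 4 arrays with differences of 0.0027 to 0.011.

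**Figure D2:**
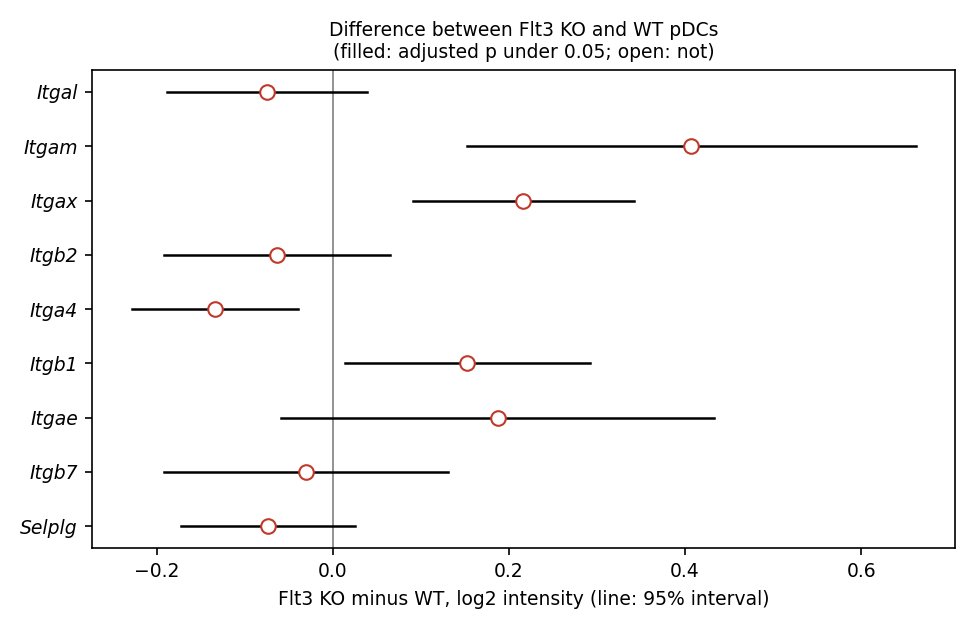
Difference between Flt3 KO and WT pDCs in log2 intensity (horizontal axis; a positive value is higher in Flt3 KO) for each of the 9 genes, with limma's 95% interval as a line; an open point did not pass an adjusted p of 0.05. All 9 points are open, and the intervals of Itgam, Itgax, Itgb1 and Itga4 leave out 0.

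Itgam and Itgax are neighbours in the RefSeq gene order of the GRCm38.p6 assembly, followed by Itgad and the cytochrome c oxidase subunit gene Cox6a2, with Trim72 and Pycard on the other side; these neighbours were chosen by position after the values of Itgam and Itgax had been seen. Itgad, which encodes αD, a further β2 partner, read 7.47 and 7.82 in Flt3 KO pDCs, against 7.62 and 7.35 in WT pDCs, so the genotypes overlapped (difference 0.16, SE 0.14, limma adjusted p = 0.60). Its second, dimmer probe set read 4.87 and 4.80 in Flt3 KO pDCs, against 4.68 and 4.60 in WT pDCs. Cox6a2, a gene that marks pDCs in mouse spleen, read 8.52 and 8.60 in Flt3 KO pDCs, against 9.40 and 9.23 in WT pDCs. It fell by 0.76 (SE 0.075, limma adjusted p = 0.0069), the only gene of the 7 in the run from Pycard to 9130023H24Rik to pass. Its call, like most in the whole table, was lost with any 1 array left out. Trim72 had a difference of 0.13, Pycard, the inflammasome adaptor gene, of −0.12 and 9130023H24Rik of −0.20. Whether the difference of Cox6a2 differs from that of Itgax was not tested. Itgal lies on the same chromosome with 35 protein-coding genes between it and Itgam. Selplg shares its chromosome with Flt3, with 479 protein-coding genes between them.

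**Figure D3:**
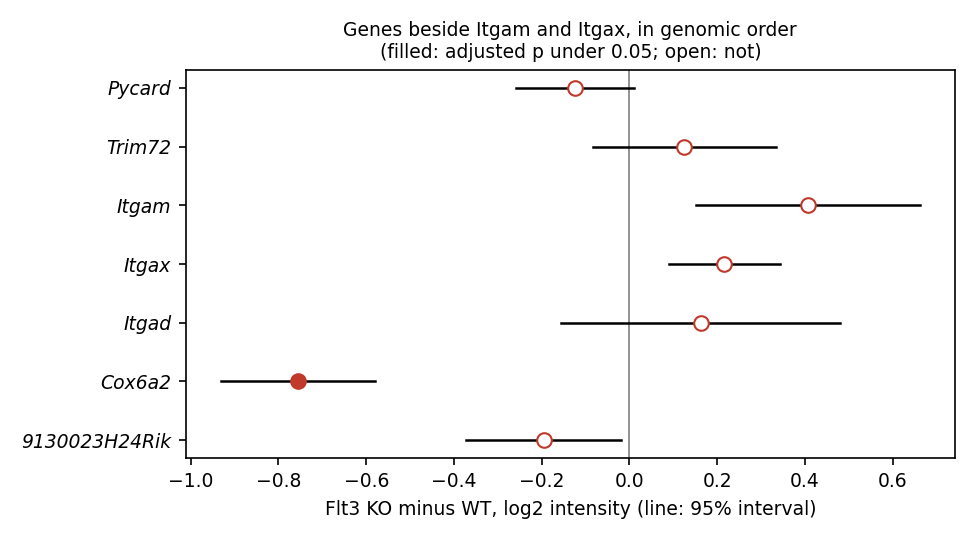
Difference between Flt3 KO and WT pDCs in log2 intensity (horizontal axis) with limma's 95% interval for the run of 7 neighbouring genes that holds Itgam and Itgax, in genomic order from top to bottom; a filled point passed an adjusted p of 0.05. Itgam, Itgax and Itgad lie right of 0 as open points, and the filled point is Cox6a2, at −0.76.

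The bases before the start of Itgam and Itgax are shown because these adjoining genes had the 2 largest differences of the 9, and those of Itga5 because it is the integrin chain that passed the threshold, as described below. Each run holds the 250 bases before the annotated start, 5′ to 3′ on the gene's strand, from RefSeq (GRCm38.p6). Capitals mark a match on either strand to GAGGAA, the core that PU.1 binds, or to TGAGTCA, the AP-1 site; the motifs do not overlap each other here. The Itgam run lies at chr7:128062390-128062639 (+ strand), the Itgax run at chr7:128129300-128129549 (+ strand) and the Itga5 run at chr15:103366792-103367041 (− strand).
Itgam: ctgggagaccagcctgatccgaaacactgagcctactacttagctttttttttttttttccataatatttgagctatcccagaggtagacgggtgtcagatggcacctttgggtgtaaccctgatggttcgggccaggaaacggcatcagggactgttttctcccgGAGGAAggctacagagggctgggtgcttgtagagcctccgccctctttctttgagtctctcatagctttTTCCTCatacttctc
Itgax: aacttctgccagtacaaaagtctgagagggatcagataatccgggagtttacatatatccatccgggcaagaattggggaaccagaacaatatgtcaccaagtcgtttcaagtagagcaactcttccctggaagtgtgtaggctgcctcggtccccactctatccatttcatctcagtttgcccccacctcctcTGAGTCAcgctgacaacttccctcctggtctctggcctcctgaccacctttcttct
Itga5: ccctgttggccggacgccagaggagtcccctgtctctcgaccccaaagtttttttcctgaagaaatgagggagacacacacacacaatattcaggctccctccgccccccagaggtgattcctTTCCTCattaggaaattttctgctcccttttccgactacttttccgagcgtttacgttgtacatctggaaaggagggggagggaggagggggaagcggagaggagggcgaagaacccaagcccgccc
The Itgam run held 2 matches to GAGGAA and 0 to TGAGTCA, the Itgax run 0 and 1, and the Itga5 run 1 and 0. GAGGAA was found in 23.3% and TGAGTCA in 4.46% of 32851 runs of the same length. A match describes these letters and is not evidence of binding. Of the 9 genes, 5 had an entry in this promoter table: Itgam, Itgax, Itga4, Itgb1 and Itgb7.

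The chains of the α4 and αE integrins stood on both sides of 0. Itga4 (Entrez gene 16401), whose product α4 binds VCAM-1 and fibronectin with β1 and MAdCAM-1 with β7, read 12.13 and 12.20 in Flt3 KO pDCs, against 12.30 and 12.30 in WT pDCs. The WT arrays were nearly identical and both Flt3 KO arrays lay below them, with a difference of −0.13 (SE 0.040, 95% interval −0.23 to −0.039, 0.911-fold, limma adjusted p = 0.15). Itgb1 (Entrez gene 16412), the β chain shared by most matrix receptors, read 8.66 and 8.66 in Flt3 KO pDCs, against 8.53 and 8.49 in WT pDCs. Its difference was 0.15 (SE 0.059, 95% interval 0.014 to 0.29, 1.11-fold, limma adjusted p = 0.25), with both Flt3 KO arrays above both WT arrays. Itgb7 (Entrez gene 16421), the β chain of the gut homing integrin, read 8.35 and 8.37 in Flt3 KO pDCs, against 8.33 and 8.45 in WT pDCs. The genotypes overlapped, and the difference of −0.031 (SE 0.068, 95% interval −0.19 to 0.13, limma adjusted p = 0.88) turned its sign under quantile normalization (0.014) and without WT replicate 2 (0.030). Itgae (Entrez gene 16407), whose product binds E-cadherin and marks type 1 conventional dendritic cells in mouse spleen, read 4.55 and 4.67 in Flt3 KO pDCs, against 4.50 and 4.35 in WT pDCs. All 4 values lay below the median of all genes, the difference was 0.19 (SE 0.10, 95% interval −0.058 to 0.43, limma adjusted p = 0.42), and no fold is given.

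Selplg (Entrez gene 20345), which encodes the PSGL-1 mucin that selectins bind once it carries sialyl Lewis x glycans and sulfated tyrosines, read 12.20 and 12.21 in Flt3 KO pDCs, against 12.24 and 12.32 in WT pDCs. The Flt3 KO arrays lay just below the WT arrays. Its difference was −0.074 (SE 0.042, 95% interval −0.17 to 0.025, limma adjusted p = 0.42), and the lower bound is 0.887-fold.

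Set side by side as heterodimers, the LFA-1 chains had differences of −0.075 (Itgal) and −0.063 (Itgb2), and the α4β7 chains of −0.13 (Itga4) and −0.031 (Itgb7). In Mac-1 and CD11c/CD18 the α chains stood at 0.41 (Itgam) and 0.22 (Itgax) beside −0.063 for the shared Itgb2. In VLA-4 the α chain stood at −0.13 (Itga4) and the β chain at 0.15 (Itgb1), and in αEβ7 at 0.19 (Itgae) and −0.031 (Itgb7). These are transcript differences of single genes, no difference between partners was tested, and surface heterodimers were not measured.

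Other genes of integrin and selectin function were read from 6 lists, 101 measured genes of 108 listed; the rest were not analysed here. Of the 101, 3 rose (2.97%) and 2 fell (1.98%), against 1.08% higher and 1.31% lower among all genes. At an unadjusted p under 0.05 there were 14 higher (13.9%) and 11 lower (10.9%), against 6.95% higher and 10.1% lower among all genes, so the lower share was near that of all genes. The lists were drawn up with earlier results of these data known, so these shares describe the chosen genes only and were not tested. Each of the 5 calls was lost when any 1 array was left out, while the sign held. Such fits leave 1 residual degree of freedom, and most calls of the whole table were lost in them. The loss therefore cannot set these 5 genes apart from other called genes.

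Of 18 other integrin chains, 1 rose, 17 did not pass, and the median difference was 0.13. Itga5, the α chain that pairs with β1 as the main fibronectin receptor, read 6.93 and 7.21 in Flt3 KO pDCs, against 6.33 and 6.12 in WT pDCs. It rose by 0.85 (SE 0.12, 95% interval 0.56 to 1.13, 1.80-fold, limma adjusted p = 0.020), and both Flt3 KO arrays were above both WT arrays by a wide margin. The difference was 0.70 without Flt3 KO replicate 2 (adjusted p = 0.18), and the call was also lost without the intensity trend (adjusted p = 0.061). Its partner Itgb1 had the smaller difference given above. Itgb3, the β chain of the vitronectin receptor, had means of 9.90 in Flt3 KO and 9.90 in WT, and its usual partner Itgav had a difference of 0.13 (SE 0.079, limma adjusted p = 0.47); both are named after their values were seen.

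Among 15 measured integrin ligands, 1 rose and 1 fell, with a median of 0.063. Fn1, which encodes fibronectin, the ligand of α5β1 and α4β1, read 6.56 and 6.44 in Flt3 KO pDCs, against 5.69 and 5.55 in WT pDCs. It rose by 0.88 (SE 0.096, limma adjusted p = 0.0085) and stayed at 0.81 to 0.95 with 1 array left out; no fold is given because its WT mean was below 5.89. Icam2, which encodes a ligand of LFA-1, read 7.01 and 7.04 in Flt3 KO pDCs, against 7.38 and 7.41 in WT pDCs. The replicates of a genotype were close, and it fell by 0.37 (SE 0.071, limma adjusted p = 0.049), a call at the edge of the threshold that was lost under quantile normalization (adjusted p = 0.053), with a replicate block (0.082), with all probe sets tested together (0.093) and without the intensity trend (0.10).

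None of 25 genes listed for integrin activation, which include the talin and kindlin genes, passed in limma (median 0.021), and 3 higher and 2 lower had an unadjusted p under 0.05. The lowest adjusted p-values were 0.11 for Rhoh, a gene of a haematopoietic small GTPase, with a difference of −0.26 (SE 0.065), and 0.15 for Adap1, with 0.41 (SE 0.12). Adap1, among the 3 higher, encodes an Arf regulator and not the integrin adaptor ADAP. That adaptor is the product of Fyb, named after its value was seen, which is also listed and had a difference of −0.087 (SE 0.050, limma adjusted p = 0.43). Of 17 measured genes of integrin signalling, Parvg fell and 16 did not pass (median −0.0032). Parvg, which encodes the haematopoietic parvin that joins integrin-linked kinase to actin, read 9.82 and 9.87 in Flt3 KO pDCs, against 10.17 and 10.15 in WT pDCs. The genotypes were well apart, and it fell by 0.32 (SE 0.050, limma adjusted p = 0.026); the call was lost without the intensity trend (adjusted p = 0.14) and with all probe sets tested together (0.062).

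None of 9 measured selectins and other rolling receptors passed in limma (median 0.025), and 1 higher and 1 lower had an unadjusted p under 0.05. Cd24a, whose product carries glycans that P-selectin can bind, read 11.14 and 10.93 in Flt3 KO pDCs, against 10.44 and 10.68 in WT pDCs. Its difference was 0.48 (SE 0.096, limma adjusted p = 0.055), which passed under median centring (adjusted p = 0.035), quantile normalization (0.027), robust variance (0.034) and the filter on dim genes (0.022). Sele, the endothelial selectin gene, had a difference of −0.25 (SE 0.090, limma adjusted p = 0.23). Of 17 genes of selectin ligand synthesis 1 rose and 16 did not pass, with a median of −0.017. By limma's unadjusted p under 0.05, 3 were higher and 3 lower, against 6.95% and 10.1% of all genes. On the lower side, and named after their values were seen, St3gal6 and C1galt1 came near the threshold. The sialyltransferase gene St3gal6 had a difference of −0.48 (SE 0.092, limma adjusted p = 0.0502). That of C1galt1 was −0.35 (SE 0.071, limma adjusted p = 0.056). St3gal4, a sialyltransferase gene known to act in selectin ligand synthesis in mouse leukocytes, read 9.02 and 9.14 in Flt3 KO pDCs, against 8.73 and 8.73 in WT pDCs. It rose by 0.35 (SE 0.065, 1.27-fold, limma adjusted p = 0.046), and the call was lost under median centring (adjusted p = 0.057), with a replicate block (0.063), without the intensity trend (0.14) and with all probe sets tested together (0.092).

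**Figure D4:**
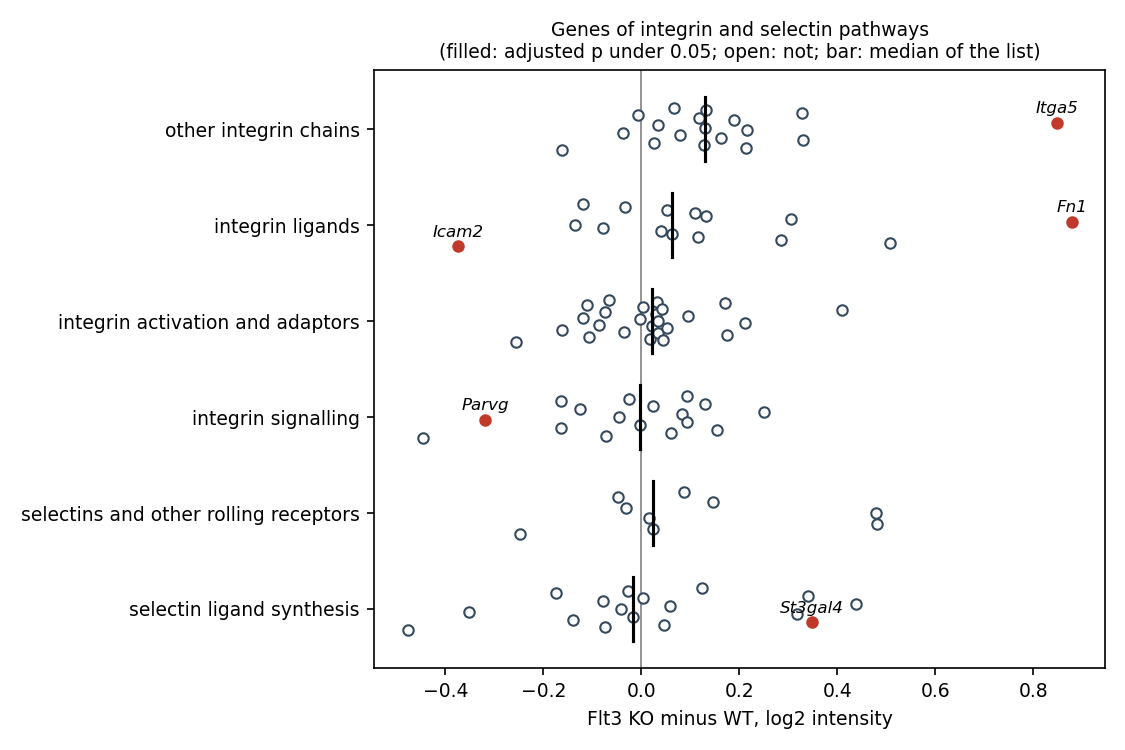
Difference between Flt3 KO and WT pDCs in log2 intensity (horizontal axis) for the 101 measured genes of 6 lists, 1 row a list with a bar at its median; filled points passed an adjusted p of 0.05 and are named, and the vertical scatter within a row only separates points. The 5 filled points are Itga5, Fn1 and St3gal4 on the higher side and Icam2 and Parvg on the lower side.

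Levels of genes listed as markers of other cell types follow, beside Itga5, which rose, and Itgam and Itgax, which did not pass. The marker lists, too, were drawn up with earlier results of these data known. Whether a listed transcript came from pDCs or from other cells was not tested. Of 12 measured markers of monocytes and macrophages, 4 rose and 0 fell, against 1.08% higher and 1.31% lower among all genes. Array values did not overlap for 7 on the higher side and 1 on the lower side, against 21.9% and 25.3% of all genes. The list median relative to the WT mean was 0.16 in Flt3 KO replicate 1 and 0.64 in Flt3 KO replicate 2. It was 0.077 and −0.077 in the WT arrays. The summed intensity of the 12 was 5363 and 6888 in Flt3 KO pDCs, against 4680 and 4367 in WT pDCs. The 4 that rose were Ccr2 and, named after their values were seen, Cx3cr1, Cd14 and Lyz2. Ccr2, a chemokine receptor gene of monocytes, rose by 0.70 (SE 0.063, limma adjusted p = 0.0046). Of 6 markers of both conventional dendritic cell types, 2 rose and 0 fell. At an unadjusted p under 0.05 in limma 5 were higher and 1 lower, against 6.95% and 10.1% of all genes. The summed intensity of the 6 was 1884 and 2115 in Flt3 KO pDCs, against 1690 and 1669 in WT pDCs. Nectin1 had the lowest adjusted p (difference 0.78, SE 0.10, limma adjusted p = 0.015). No marker intensity on the arrays was 0. The 6 markers of type 1 conventional dendritic cells, none of which passed, had mean levels of 10.71 in Flt3 KO and 10.81 in WT for Clec9a, 8.33 and 8.32 for Cadm1, and 6.63 and 6.70 for Batf3, above the median of all genes. The other 3 lay below it, with 5.31 and 5.74 for Cd36, 4.59 and 4.61 for Tlr3, and 4.53 and 4.67 for Xcr1. All but Cd36 are named after their values were seen. Itgam and Itga5 were higher in Flt3 KO replicate 2 than in Flt3 KO replicate 1, whereas Itgax and Itgb1 were level between these replicates. List medians were also higher there for monocytes and macrophages, both conventional types, type 2 conventional dendritic cells, T cells and plasma cells. They were lower there for pDCs, type 1 conventional dendritic cells, neutrophils, NK cells and B cells. Between the WT arrays, Itga5, Itgax, Itgb1 and the monocyte and macrophage list were lower in replicate 2, whereas Itgam was higher. The part of cells of these types in the integrin values was not tested.

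**Figure D5:**
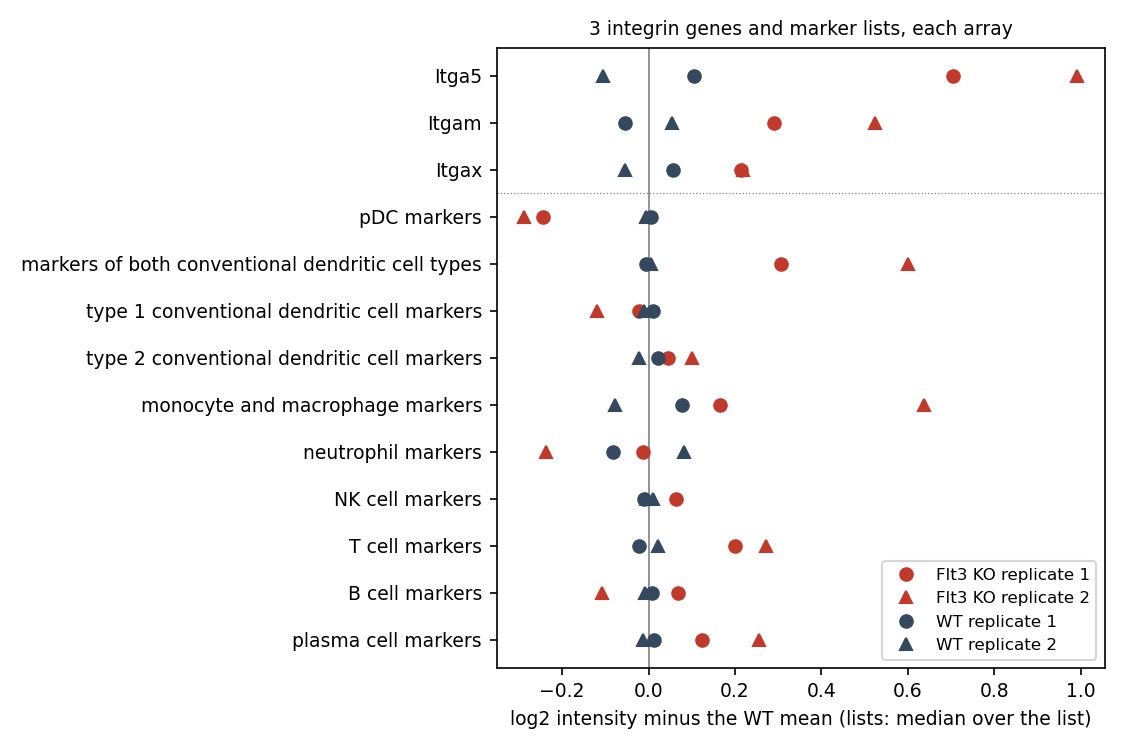
Log2 intensity minus the WT mean (horizontal axis) of Itga5, Itgam and Itgax (above the dotted line) and the median over each of 10 marker lists (below it), with Flt3 KO arrays in red and WT arrays in blue, replicate 1 as circles and replicate 2 as triangles. Flt3 KO replicate 2 stands at 0.64 for monocyte and macrophage markers, against 0.16 in Flt3 KO replicate 1, and the 2 replicates coincide for Itgax.

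Of 11 measured pDC markers 6 fell and 0 rose (median −0.25), against 1.31% lower and 1.08% higher among all genes. At an unadjusted p under 0.05 in limma 9 were lower and 0 higher, against 10.1% and 6.95% of all genes. Array values did not overlap for 10 on the lower side and 0 on the higher side, against 25.3% and 21.9% of all genes. The summed intensities of these markers were 34022 and 34089 in Flt3 KO pDCs, against 39581 and 39144 in WT pDCs. Tmem176b, which rose by 0.90 (SE 0.068, limma adjusted p = 0.0037), was the only one of 7 type 2 conventional dendritic cell markers to pass (list median 0.090). Slamf7, which rose by 0.94 (SE 0.078, limma adjusted p = 0.0039), was among 2 higher and 1 lower of 6 plasma cell markers (list median 0.19). Ccr2, Tmem176b and Slamf7 each had a mean log2 of at least 6 over the 4 arrays, above the median of all genes. No marker of type 1 conventional dendritic cells (6 measured, median −0.084), neutrophils (8, −0.12), NK cells (7, 0.024), T cells (5, 0.24) or B cells (6, −0.037) passed in limma. At an unadjusted p under 0.05 these 5 lists held 0, 1, 0, 3 and 1 higher and 1, 1, 0, 1 and 1 lower, in that order. The lowest p in each was that of Cd36 (difference −0.43), the alarmin gene S100a8 (−0.34), the perforin gene Prf1 (0.24), Cd5 (−0.36) and the complement receptor gene Cr2 (0.35).

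The genes most like Itgax over the 4 arrays, by the Euclidean distance after each gene was centred on its own mean, were Gsc2 (distance 0.0084), Rassf4 (0.013) and Dstyk (0.013), with differences of 0.21, 0.23 and 0.21 and limma adjusted p-values of 0.30, 0.13 and 0.27. With 4 arrays such likeness is a description of these values only.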

How the data were processed

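Plasmacytoid dendritic cells from Flt3 KO and WT spleens, 2 samples each, were profiled on whole-transcript arrays after amplification with the Ambion WT Expression kit, per the labels. The deposited values are the authors' processed intensity on a linear scale; how they were background-corrected, summarised and scaled is not given in the sources used here. Probe sets were named from the platform annotation (21789 with a single symbol, 1621 with several, 6767 unnamed), keeping for each gene the probe set with the highest mean. log2 of the deposited intensity, with no added constant and no filter, entered limma 3.58.1 (R 4.3.3) with an intensity trend in eBayes, and p-values were adjusted by Benjamini-Hochberg over 19938 genes. An exact permutation test of 2 against 2 cannot go below 0.3333. The fit was tested on simulated data. Noise was drawn there for each gene and array independently, so that run cannot speak for effects shared by a whole array. For arrays, the number of samples limits the precision.

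The genes and lists were chosen with earlier results of these data known. The text names Flt3, the 9 genes, up to 5 called genes of each pathway list (otherwise the 2 with the lowest p), the lowest p of each marker list and the 3 genes most like the member with the lowest adjusted p; others are marked. The alternatives were other scalings, variance settings, an added constant, a dim-gene filter, probe set averaging, all probe sets, a replicate block and each array left out. The deviations of same-numbered samples from their group means correlated with r = −0.017 over genes, so the numbers were not taken as pairs.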

Additional observations from a re-analysis of the deposited data

How the results depend on the processing

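The count of 0 called among the 9 genes held under all 13 alternatives, with 2 to 4 of them under 0.05 by limma's unadjusted p; the lowest adjusted p was 0.051, for Itgax with only genes of a mean log2 of at least 6, which left out Itgam and Itgae. Of 115 differences of the 9 genes under alternatives, 2 had the sign turned, both of Itgb7. These were 0.014 under quantile normalization and 0.030 without WT replicate 2, in a range of −0.092 to 0.030 with 1 array left out. The cause was not tested. Other small differences moved with the scaling while keeping their sign. Itgal stood at −0.11 with each array centred on its median and −0.037 under quantile normalization, and Selplg at −0.11 and −0.032. The number of called genes in the whole table was 476, but 108 without the intensity trend, 748 of 9620 with the filter on dim genes, 219 with all 30177 probe sets tested together, and 0 to 54 with 1 array left out, where 1 residual degree of freedom remains. Flt3 differed by −2.28 to −2.13 with 1 array left out and lost its call without WT replicate 1 (−2.24, adjusted p = 0.063) or WT replicate 2 (−2.17, adjusted p = 0.074). With the replicate block 375 genes passed and 0 of the 9; the labels share only a replicate number, and the block ended the calls of Icam2 and St3gal4 among named genes. No detection call was available, so how far the low signals of Itgae and Itgam stood above background is unknown.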
